A study of Homo sapiens with 27 samples.

Results

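The genes described here encode the subunits, activators and assembly chaperones of the proteasome, the complex that degrades most short-lived and damaged proteins of a cell. They were chosen by symbol: every line of the count table named PSMA to PSMG followed by a number was taken, which gave 44 of the 23230 gene symbols. Of these, 42 had enough counts to be tested in every fit. PSMA8 and PSMB11, whose products belong to proteasomes of the testis and the thymus, did not pass the filter on low counts. The tested members fall into 3 interferon-inducible genes (PSMB9, PSME1 and PSME2) and 39 constitutive genes. PSMA4, PSMB8, PSMB10 and PSME3 were not analysed here, so PSMB9 stands alone for the inducible catalytic subunits.

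The study asked what MAML3, a transcriptional coactivator of the Mastermind family, does in neuroendocrine tumour cells. Cells of SK-N-SH, which derives from a neuroblastoma, and of QGP-1 and BON-1, from pancreatic neuroendocrine tumours, were transiently transfected with 1 of 3 plasmids. The vector groups received the empty pCMV6-AC plasmid. The FL groups received the same plasmid with full-length MAML3 cDNA, and the dEx1 groups received it with MAML3 cDNA that lacks the first exon, both with a C-terminal V5 tag. RNA was harvested on day 3, and each of the 9 groups has 3 libraries, described as biological replicates, 27 in all. Each line keeps its own native MAML3, and the share of cells that took up a plasmid is not given in the sources used here. All 3 comparisons within a line share libraries in pairs, so they are not independent of one another.

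The core of the proteasome is a barrel of stacked rings: alpha subunits form the outer rings and gate the entrance, and beta subunits form the inner rings, where PSMB5, PSMB6 and PSMB7 carry the constitutive peptide-cutting sites. A regulatory particle docks on the barrel, recognises ubiquitinated proteins and threads them in, with its PSMC subunits acting as the ATPase motor and most PSMD subunits forming its base and lid. Interferon gamma induces 3 alternative catalytic subunits, PSMB8, PSMB9 and PSMB10, that replace PSMB5, PSMB6 and PSMB7 in newly built barrels to form the immunoproteasome, and it also induces PSME1 and PSME2, which together form the PA28 activator. The immunoproteasome changes which peptides are cut for display on MHC class I molecules, and most cells outside the immune system hold little of it without an inflammatory signal.

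In the hg19 annotation PSMB9 lies on chromosome 6 from 32811913 to 32827628 on the plus strand, has 6 exons in its canonical transcript and lies in the MHC region. TAP1, the peptide transporter gene, runs the other way from 32812986 to 32821593, inside that annotated span. The exons of the canonical PSMB9 transcript overlapped no other annotated gene. PSME1 (chromosome 14, 24605372 to 24608176, plus strand) and PSME2 (chromosome 14, 24612571 to 24616779, minus strand) are neighbours, and exons of PSME1 overlap those of EMC9 on the opposite strand. The strand setting of the authors' counting is not given in the sources used here, so reads of PSME1 and EMC9 may not be told apart. Among the members, 11 overlap exons of another annotated gene, and 17 have pseudogenes named after them (44 such pseudogenes, 6 of them named after PSME2), with which a count can be shared.

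In SK-N-SH with dEx1 against vector, only inducible members passed the threshold of the main test. Promoter sequences are therefore shown for the inducible members, for TAP1 and for the 2 constitutive members with an interferon motif. They come from RefSeq on GRCh38.p14, in windows of 250 bases before to 50 bases after each start site, and 38 of the 44 members had an entry. The interferon-stimulated response element was searched as GAAA, any 2 bases and GAAA on both strands, so that it may read as TTTC, 2 bases and TTTC in the printed strand. Capitals mark its matches. Each sequence is given 5′ to 3′ on the strand of the gene.
PSME2, chr14:24146611-24146710, minus strand, match starting 28 bases before the start site: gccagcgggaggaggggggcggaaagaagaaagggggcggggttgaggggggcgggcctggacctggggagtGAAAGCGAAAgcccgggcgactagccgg
PSME1, chr14:24136189-24136218, plus strand, match starting 5 bases past the start site: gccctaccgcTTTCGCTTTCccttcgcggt
PSMB9, chr6:32853942-32854191, plus strand, no match: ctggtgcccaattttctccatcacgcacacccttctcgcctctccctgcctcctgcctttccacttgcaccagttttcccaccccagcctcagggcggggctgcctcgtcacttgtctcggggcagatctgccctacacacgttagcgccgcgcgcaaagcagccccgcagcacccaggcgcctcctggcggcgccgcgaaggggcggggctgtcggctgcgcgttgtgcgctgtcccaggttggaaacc
TAP1, chr6:32853781-32853880, minus strand, 2 overlapping matches: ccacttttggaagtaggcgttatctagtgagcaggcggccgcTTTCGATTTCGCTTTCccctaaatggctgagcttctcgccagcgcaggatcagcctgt
PSMB4, chr1:151399460-151399559, plus strand, match starting 68 bases before the start site: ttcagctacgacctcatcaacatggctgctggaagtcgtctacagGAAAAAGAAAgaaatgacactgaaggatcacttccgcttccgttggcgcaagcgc
PSMG4, chr6:3258847-3258946, plus strand, match starting 33 bases before the start site: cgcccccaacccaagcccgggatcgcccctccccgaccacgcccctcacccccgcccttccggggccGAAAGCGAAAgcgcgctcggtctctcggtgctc
PSME1, PSME2 and PSMG4 hold the motif with GC between its repeats, read on one strand or the other, while PSMB4 has AA there. For PSMB9, no match refers to its searched window alone. The TAP1 stretch with 2 matches, 32853781 to 32853880, lies upstream of PSMB9, just outside that window, which begins at 32853942. Over all 35116 promoter windows, 3.57% held the interferon motif, against 4 of the 44 member windows (9.09%). The gamma-activated site TTCNNNGAA, which reads the same on both strands, was in 7.66% of all windows and in 6 member windows (13.6%), none of them a window of PSMB9, PSME1 or PSME2. The core of the antioxidant response element, TGACNNNGC on either strand, through which the factor NRF2 is known to act on proteasome genes, was in 13.3% of all windows and in 14 member windows (31.8%), those of PSMB9, PSME1 and PSME2 among them. No match to 1 of these 3 motifs overlapped a match to another in the windows of PSMB9, PSME1 or PSME2. A match is a description of these letters and says nothing about binding.

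Deposited counts summed to between 73026244 and 120254457 per library, and the members took 0.4406 to 0.6769% of them. Levels are given as CPM, counts scaled to the size of the library. MAML3 was at 16.9 to 93.7 CPM in the vector libraries and at 2231 to 15840 CPM in the libraries transfected with either construct, so every construct library was above every vector library. A count per gene cannot tell the constructs from each other or from native MAML3. Of 8 sympathetic neuroblastoma markers, 7 exceeded a mean of 1 CPM in SK-N-SH and TH did not. All 9 pancreatic neuroendocrine and epithelial markers exceeded it in BON-1, and 8 did in QGP-1, where NEUROD1 was at 0. Each list also had levels in the other lines: 6 of the 9 exceeded 1 CPM in SK-N-SH (SCG2 at 839.6 and KRT18 at 132 CPM with vector), and of the 8 sympathetic markers 1 did in BON-1 and 4 in QGP-1. Some libraries stood apart by principal components: in SK-N-SH vector replicate 3 lay on the dEx1 side of the first component (40.6% of variance), in BON-1 vector replicate 1 lay far from the other libraries (28.4%), and QGP-1 formed 2 clusters (39.9%) that split replicates of the same group. On the second component (19.6%) replicate 3 of all 3 SK-N-SH groups lay apart, at -40.5, -68.0 and -24.6 against -12.1 to 40.7 in the others. In BON-1 (25.8%) replicate 3 of every group was at 31.6 to 46.5. The other BON-1 libraries were at -36.3 to -28.6, except vector replicate 1 at 38.0. These are bulk cultures, so a lower level in a group can mean fewer cells of a kind or less RNA per cell, which cannot be told apart.

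Levels of different genes were compared as CPM per kilobase of the canonical transcript. With vector alone, the genes of the PA28 activator ranked among the most abundant members in SK-N-SH: PSME2 was 2 of 42 at 320 ± 35.6 (SD, n = 3) and PSME1 was 4 at 246 ± 17.7. PSMB9 ranked 7 at 166 ± 10.7 CPM per kilobase, above all constitutive catalytic subunits, of which PSMB7 stood at 157 ± 11.2, PSMB6 at 102 ± 5.79 and PSMB5 at 94.3 ± 14.9. Those of PSMB9 and PSMB7 differed by less than their SD. In BON-1 the order was another. PSMB5, the chymotrypsin-like site, ranked 2 at 299 ± 25.5 CPM per kilobase, PSME2 ranked 7 at 186 ± 24.5 and PSME1 ranked 11 at 125 ± 32.8. PSMB9 ranked 41 at 8.63 ± 4.38, with PSMG4, a chaperone of core assembly, below it. In QGP-1 the caspase-like site PSMB6 ranked 5 at 181 ± 65.5 CPM per kilobase, PSME2 ranked 10 at 115 ± 24.1, PSME1 ranked 16 at 82.6 ± 5.05, and PSMB9 was last at 0.163 ± 0.176. The leading members were PSMC5, an ATPase of the regulatory particle, in SK-N-SH (428 CPM per kilobase), the alpha subunit PSMA7 in BON-1 (325) and the beta subunit PSMB4 in QGP-1 (297). PSMC5 shares exon sequence with its neighbour FTSJ3.

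**Figure D1:**
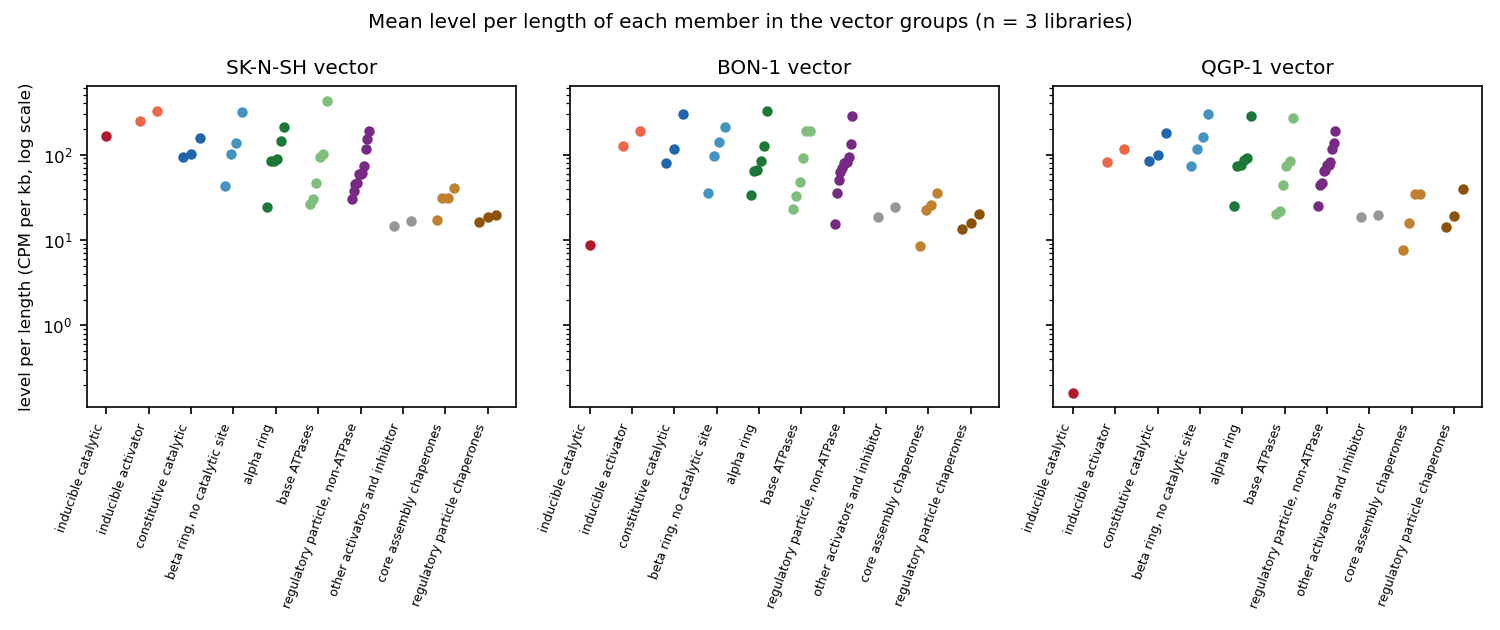
Level of each of the 42 tested members with vector alone, in CPM per kilobase on a log axis, grouped by role and drawn with 1 panel for each line. Each point is the mean of 3 libraries; PSMB9 is near PSMB7 and above PSMB6 and PSMB5 in SK-N-SH (166), near the bottom in BON-1 (8.63) and last in QGP-1 (0.163).

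PSMB9, the inducible counterpart of PSMB6, varied more over the 9 groups than any other member. In SK-N-SH it was at 176, 175 and 156 CPM with vector, at 176, 171 and 237 CPM with FL, and at 57.0, 68.4 and 27.4 CPM with dEx1. Every dEx1 library was thus below every vector and FL library, while vector and FL overlapped. In BON-1 PSMB9 was at 13.8, 5.44 and 7.06 CPM with vector, at 7.13, 7.15 and 8.69 CPM with FL and at 6.50, 4.63 and 5.36 CPM with dEx1. The vector range there holds all FL libraries and the highest dEx1 library, and vector replicate 1 is its upper end. In QGP-1 PSMB9 was at 0.356, 0 and 0.142 CPM with vector, at 0.120, 0.568 and 0.418 CPM with FL and at 0.133, 0.0909 and 0.414 CPM with dEx1, so all 3 groups overlapped at levels near 0. The order of group means was SK-N-SH FL, SK-N-SH vector, SK-N-SH dEx1, the BON-1 groups and then the QGP-1 groups. Neighbouring groups did not overlap at the steps below SK-N-SH vector, below SK-N-SH dEx1, from BON-1 FL to BON-1 dEx1 and from BON-1 to QGP-1, and overlapped at the others.

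PSME1, the alpha chain of PA28, was at 247, 247 and 217 CPM with vector, at 244, 256 and 285 CPM with FL and at 178, 169 and 131 CPM with dEx1 in SK-N-SH. PSME2, the beta chain, was at 260, 278 and 223 CPM with vector, at 292, 276 and 326 CPM with FL and at 151, 141 and 102 CPM with dEx1. Both chains therefore show the pattern of PSMB9 in this line: no dEx1 library reached the range of the other groups, and dEx1 replicate 3 was the lowest for all 3 genes. In BON-1 PSME1 was at 155, 92.4 and 114 CPM with vector, at 111, 115 and 127 CPM with FL and at 102, 87.2 and 109 CPM with dEx1. BON-1 PSME2 was at 128, 148 and 167 CPM with vector, at 172, 179 and 183 CPM with FL and at 150, 138 and 156 CPM with dEx1. For PSME1 the groups of BON-1 overlapped except that all FL libraries were above all dEx1 libraries, and for PSME2 the FL libraries were above all others. In QGP-1 PSME1 stayed between 73.9 and 85.4 CPM in all 9 libraries. QGP-1 PSME2 was at 113, 78.6 and 81.9 CPM with vector, at 89.2, 91.9 and 83.6 CPM with FL and at 89.2, 78.7 and 80.8 CPM with dEx1, with overlap of all groups.

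**Figure D2:**
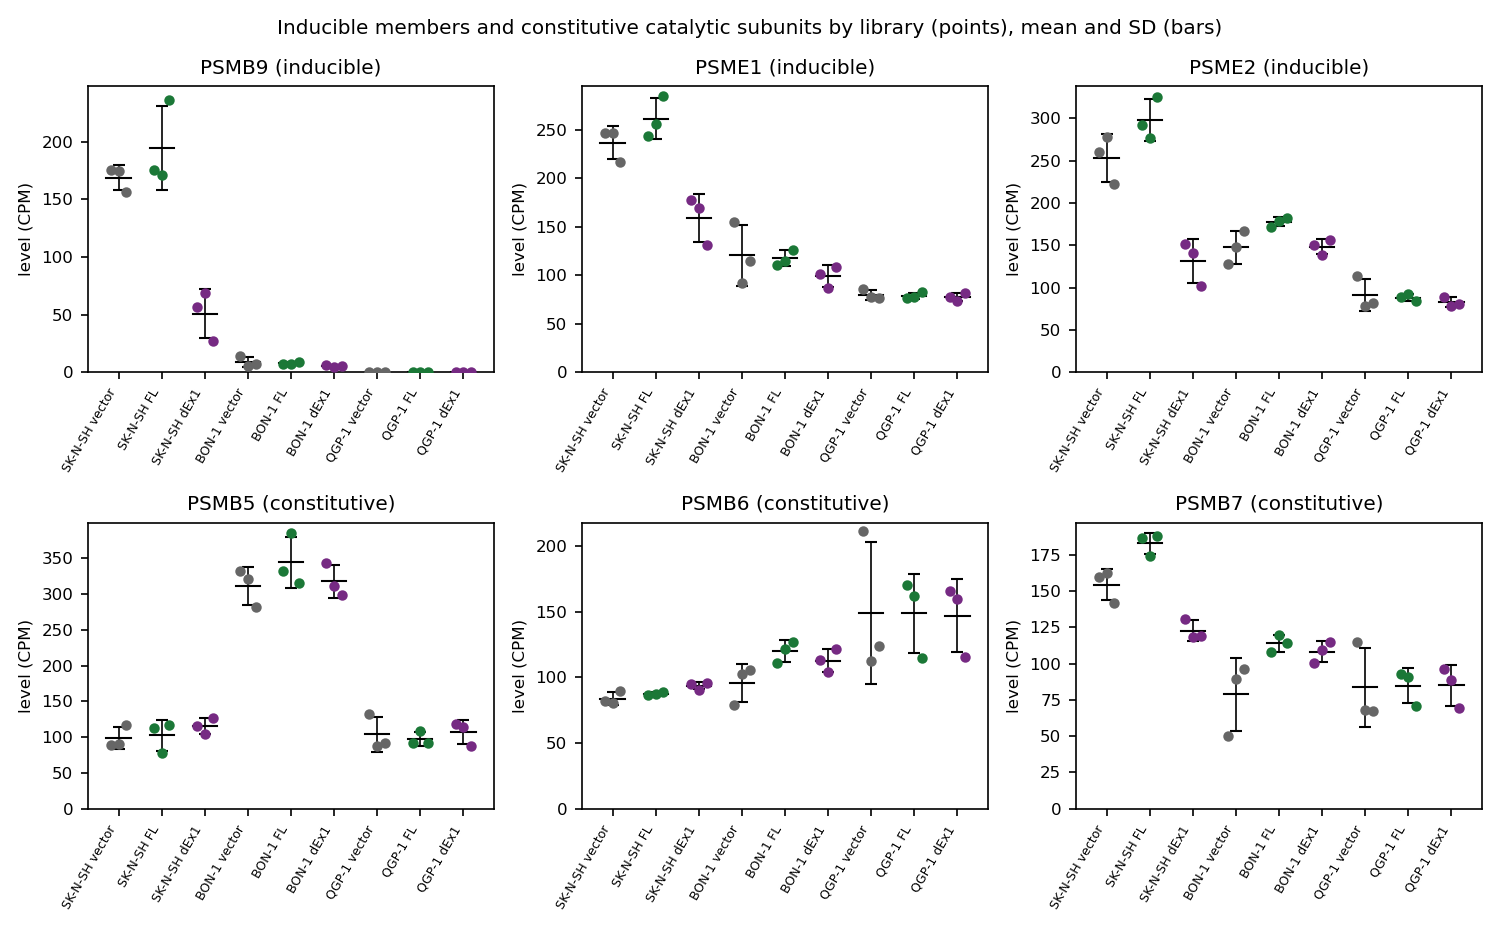
CPM of PSMB9, PSME1, PSME2, PSMB5, PSMB6 and PSMB7 in each of the 27 libraries, with the mean and SD of each group of 3. The 3 SK-N-SH dEx1 libraries sit below the SK-N-SH vector and FL libraries for PSMB9 (27.4 to 68.4 against 156 to 237 CPM), PSME1 and PSME2, and also for PSMB7 (119 to 131 against 142 to 188 CPM), but not for PSMB5 or PSMB6.

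The constitutive catalytic genes followed other patterns. PSMB5 was at 89.1, 89.7 and 116 CPM with vector, at 113, 77.6 and 117 CPM with FL and at 115, 104 and 126 CPM with dEx1 in SK-N-SH, and at 282 to 385 CPM in BON-1 and 87.6 to 132 CPM in QGP-1. PSMB6 in SK-N-SH was at 81.7, 80.5 and 89.3 CPM with vector, at 86.4, 87.6 and 88.5 CPM with FL and at 94.6, 90.6 and 95.8 CPM with dEx1, so the dEx1 libraries were the highest. PSMB7, the trypsin-like site, was at 159, 162 and 142 CPM with vector, at 187, 175 and 188 CPM with FL and at 131, 119 and 119 CPM with dEx1. That order, FL above vector above dEx1 with no overlap, differs from those of PSMB5 and PSMB6. Per length, the PSMB9 level exceeded that of PSMB6, the subunit it replaces, in all 6 SK-N-SH vector and FL libraries, by 0.51 to 1.11 on the log2 scale. In the 3 dEx1 libraries it was lower than that of PSMB6, with log2 ratios of -1.03, -0.71 and -2.11. In BON-1 the log2 ratio lay between -4.80 and -2.81 in all 9 libraries.

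The first SK-N-SH comparison asked how dEx1 differed from vector. With dEx1, PSMB9 fell by 1.73 on the log2 scale (SE 0.30), to 0.302 of the vector level, with an adjusted p of 0.0177 in edgeR's quasi-likelihood test with Benjamini-Hochberg adjustment over all genes. PSME2 fell by 0.94 (SE 0.15, adjusted p = 0.0157), and PSME1 fell by 0.57 (SE 0.13, adjusted p = 0.0430). So 3 of 3 inducible members fell and 0 of 39 constitutive members passed the threshold of 0.05. Over all 14674 genes tested, 4.47% were called and 3.64% were called lower. At an unadjusted p under 0.05 stood 9 of 39 constitutive members, 2 higher and 7 lower, where 22.7% of all genes did, so that count is near the background. DESeq2 called 9 members, 1 of them higher. The median log2 fold was -0.94 over the inducible members, -0.02 over the constitutive members and 0.01 over all genes.

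Among the constitutive genes, the alpha ring was lower with dEx1 by values that did not pass: all 6 tested alpha members had a negative fold, with a median of -0.36, and 4 of them had an unadjusted p under 0.05, where 12.8% of all genes were lower at that level. PSMG2, which with PSMG1 assembles the alpha ring, and the alpha subunits PSMA3 and PSMA6 came nearest to the threshold, with adjusted p of 0.0515, 0.0519 and 0.0549 in the same test. The fold was -0.33 for PSMB7 (adjusted p = 0.0681), 0.23 for PSMB5 (adjusted p = 0.485) and 0.17 for PSMB6 (adjusted p = 0.246) by edgeR. The ATPases had a median of 0.02, and the 11 other subunits of the regulatory particle a median of 0.07. The calls of this comparison rest on few libraries: without vector replicate 1, vector replicate 2 or dEx1 replicate 1 no member was called, without FL replicate 3 there were 5, and without vector replicate 3, the library that stood apart, there were 8. Of 18 alternatives, 3 ended the PSME2 call, those same 3 libraries left out, and 5 ended that of PSMB9, the same 3, only the 6 libraries compared, and all 27 libraries in 1 edgeR fit (adjusted p = 0.0737, the highest of them). The PSME1 call was the least firm: 8 alternatives ended it, with adjusted p up to 0.167, namely only the 6 libraries compared and the omission of any 1 library other than vector replicate 3 or FL replicate 3. The folds themselves stayed between -2.01 and -1.44 for PSMB9, -1.07 and -0.80 for PSME2, and -0.66 and -0.46 for PSME1 whichever library was left out.

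The second SK-N-SH comparison set dEx1 against FL, both of which carry MAML3. Here 12 of 42 members fell and 0 rose, where 22% of all genes were called and 11.5% were called lower. PSMB9 fell by 1.93 (SE 0.30, adjusted p = 0.00332, edgeR), to 0.263 of its level with FL. PSME2 fell by 1.18 (SE 0.16, adjusted p = 0.00186) and PSME1 by a log2 value of 0.71 to 0.611 of FL (adjusted p = 0.00593). The other 9 were constitutive. PSMA6, an alpha subunit, was at 215, 214 and 189 CPM with FL and at 124, 99.0 and 102 CPM with dEx1, and fell by 0.92 (SE 0.11, adjusted p = 0.00133). Its vector libraries were between the other groups, at 139, 150 and 156 CPM, so the groups formed 3 separate steps. PSMG2 was at 49.4, 47.5 and 52.8 CPM with FL and at 35.4, 33.1 and 31.7 CPM with dEx1, and fell by 0.57 (SE 0.09, adjusted p = 0.00309). PSMB7 fell by 0.57 (SE 0.09, adjusted p = 0.00295). PSMG4 was at 25.0, 24.3 and 30.5 CPM with FL and at 19.0, 19.3 and 20.6 CPM with dEx1, and fell by 0.43 (SE 0.12, adjusted p = 0.0377).

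By role, 5 of 6 alpha subunits fell, 2 of 4 core assembly chaperones (PSMG2 and PSMG4), 1 of 3 constitutive catalytic subunits (PSMB7), and 1 of the 11 non-ATPase subunits of the regulatory particle, which was PSMD14, the deubiquitinase of the lid. None of the 6 ATPases and none of the 4 beta subunits without a catalytic site was called, with 1 and 0 of them at an unadjusted p under 0.05, where 35.6% of all genes stood. The alpha subunits that fell besides PSMA6 were PSMA3, by 0.47 (adjusted p = 0.0100), PSMA5, by 0.46 (adjusted p = 0.0131), PSMA2, by 0.45 (adjusted p = 0.0431), and PSMA1, by 0.37 (adjusted p = 0.0110), all by edgeR. PSMA7, the only other alpha subunit tested, was at 227, 208 and 229 CPM with FL and at 205, 189 and 207 CPM with dEx1. The median fold was -0.46 over the alpha ring, -0.15 over the constitutive members and 0.00 over all genes. PSMB9, PSME1, PSME2, PSMA6 and PSMG2 were called under each of the 18 alternatives run. With all 27 libraries in 1 fit 6 were called, PSMA5 and those 5. The calls of PSMA2 and PSMG4 were lost without any 1 of 7 libraries, all but vector replicate 3 and FL replicate 2, with adjusted p up to 0.130 and 0.120, and that of PSMA5 without dEx1 replicate 2 (adjusted p = 0.0526).

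**Figure D3:**
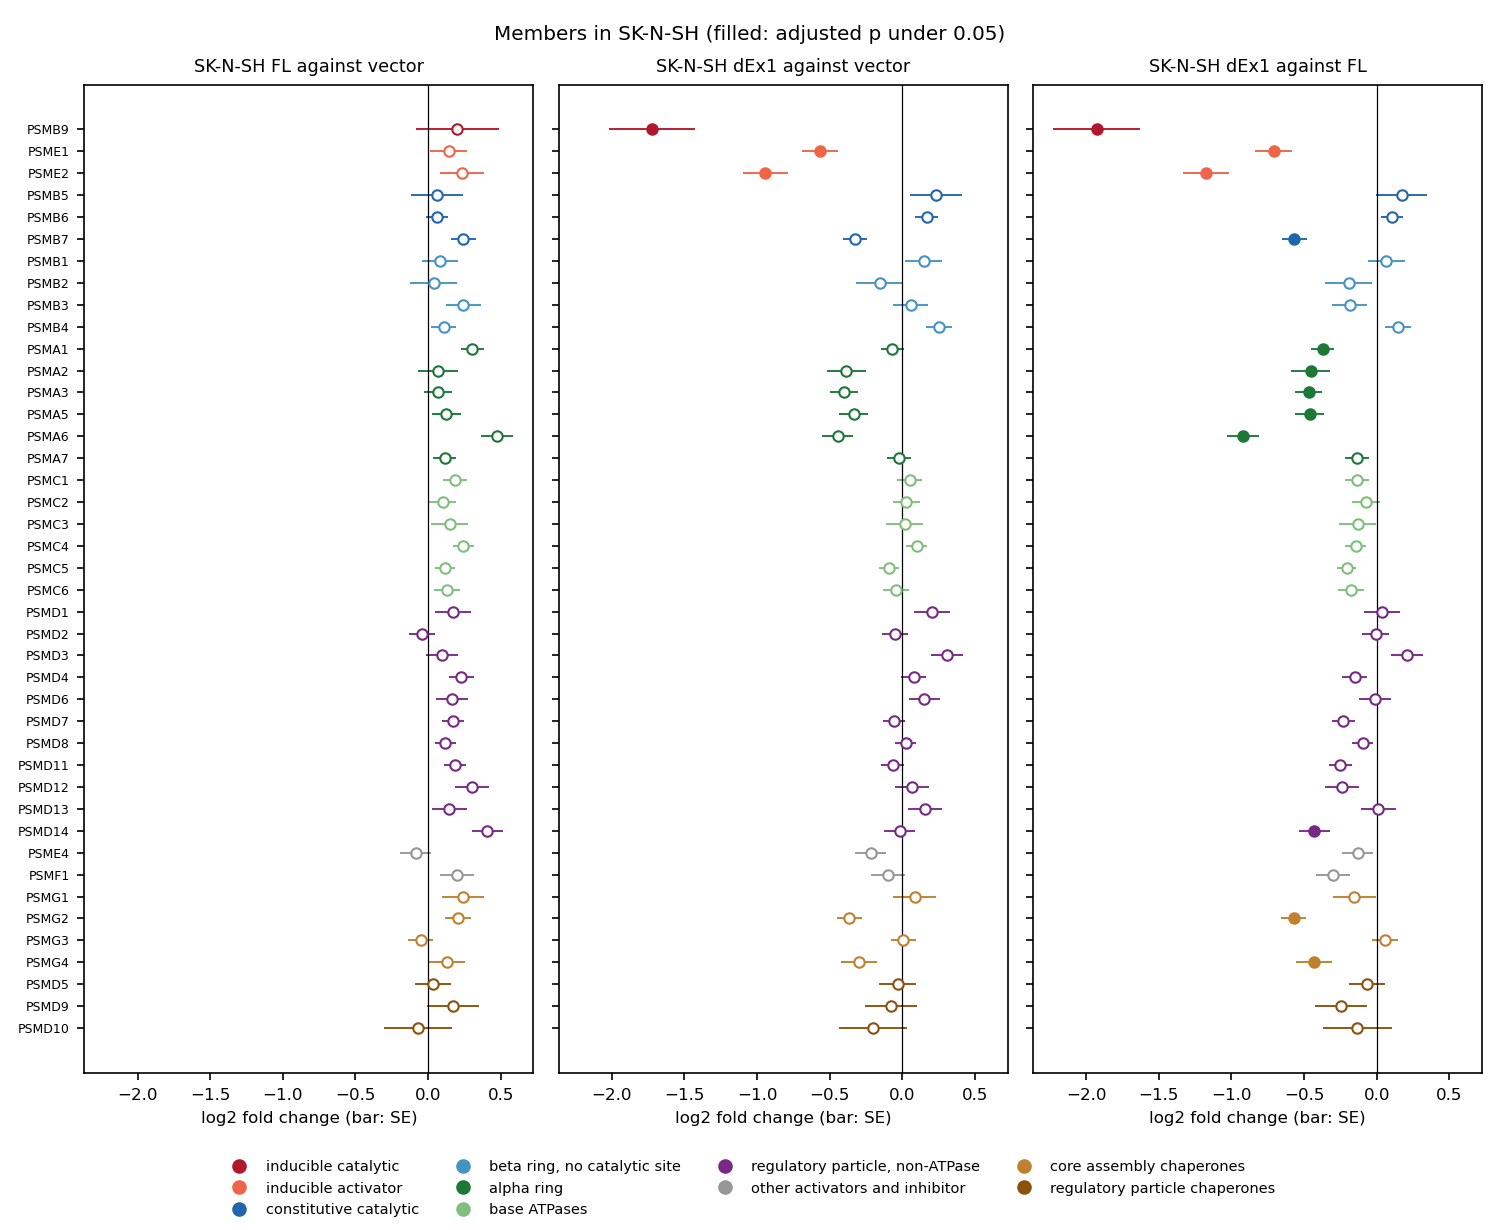
Log2 fold of each of the 42 tested members, by role, in the 3 SK-N-SH comparisons, with bars of 1 SE and filled points where the adjusted p was under 0.05. PSMB9 (-1.73 and -1.93), PSME2 and PSME1 lie farthest left in both dEx1 panels apart from PSMA6 against FL (-0.92), and the FL against vector panel has no filled point.

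FL against vector was the third SK-N-SH comparison, and no member passed the threshold in edgeR's test, where 1.74% of all genes were called. At an unadjusted p under 0.05 stood 9 members, all constitutive and all higher with FL, where 15.7% of all genes were at that level and 7.5% were higher, and DESeq2 called 4 (PSMA1, PSMA6, PSMC4 and PSMD14, all higher). The folds were small and mostly of 1 sign: 38 of 42 were positive, with a median of 0.14, where 49.05% of all genes were positive, with a median of -0.01. PSMA6 had the lowest p, with a fold of 0.48 (SE 0.11, adjusted p = 0.0684) and FL libraries all above the vector libraries. PSMA1 followed at 0.30 (SE 0.08, adjusted p = 0.0982), with 139, 130 and 128 CPM with FL against 108, 108 and 106 CPM with vector. The inducible members had folds of 0.20 for PSMB9 (adjusted p = 0.811), 0.14 for PSME1 (adjusted p = 0.666) and 0.23 for PSME2 (adjusted p = 0.523), and each had FL libraries within the range of vector.

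The other genes of the pathway were taken from 3 lists. In SK-N-SH, 10 of 14 genes of MHC class I antigen processing fell with dEx1 against vector, with a list median of -1.28. In that comparison 4.47% of all genes were called and 3.64% were called lower. HLA-F fell by 3.80 (adjusted p = 0.0105) and HLA-C by 2.09 (adjusted p = 0.0126), both MHC class I heavy chains. TAP1, at 1041, 917 and 829 CPM with vector and 424, 498 and 240 CPM with dEx1, fell by 1.26 (SE 0.25, adjusted p = 0.0288). NLRC5, the transactivator of class I genes, fell by 1.43 (SE 0.27, adjusted p = 0.0247), from 129, 123 and 133 CPM to 49.2, 65.9 and 27.5 CPM. Of 16 interferon signalling genes 3 fell. IRF1, a transcription factor that is itself interferon-induced and is known to act on PSMB9 and TAP1, fell by 1.75 (SE 0.27, adjusted p = 0.0140), from 196, 199 and 186 CPM to 63.6, 77.2 and 31.5 CPM. The other 2 were IRF2, by 1.46 (adjusted p = 0.0185), and the kinase JAK2, by 1.02 (adjusted p = 0.0121). The list median was -0.44. Single libraries decided calls here too. TAP1 missed the threshold without vector replicate 1, vector replicate 2, FL replicate 1 or dEx1 replicate 1 (adjusted p up to 0.115), and so did NLRC5 (up to 0.0898) when either of the same vector libraries or dEx1 replicate 1 was left out. For IRF1 the adjusted p was 0.055 with vector replicate 1 left out and 0.0579 with dEx1 replicate 1 left out.

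Of 22 partners of the proteasome (ubiquitin genes, shuttle factors, the maturation factor POMP and regulators of proteasome genes), 1 fell against vector: AKIRIN2, which takes proteasomes into the nucleus, by 0.47 (adjusted p = 0.0292). Their median was -0.04. In that comparison 4.47% of all genes were called and 3.64% were called lower, so 1 of 22 is near the background. Against FL the counts were larger, as they were over all genes, of which 22% were called and 11.5% were called lower. In class I processing 11 of 14 fell and 2 rose (the chaperone genes CALR, by 0.43 with adjusted p = 0.0216, and PDIA3, by 0.27 with adjusted p = 0.0447), in interferon signalling 9 of 16 fell, and of the partners 6 of 22 fell and 1 rose. TAP1 fell by 1.25 (adjusted p = 0.00936), IRF1 by 1.90 (adjusted p = 0.00247) and NLRC5 by 1.32 (adjusted p = 0.0104). Among the partners NFE2L1, the factor that raises proteasome genes when proteasomes are short, fell by 0.87 (adjusted p = 0.00497) and POMP by 0.50 (adjusted p = 0.00504), while UBQLN4 rose by 0.33 (adjusted p = 0.0235). FL against vector gave no call among the interferon and partner genes by edgeR. Of them 2 and 4 were at an unadjusted p under 0.05, where 15.7% of all genes stood. TAP1 was at 815, 849 and 1109 CPM with FL, IRF1 at 220, 226 and 202 CPM and NLRC5 at 102, 116 and 138 CPM.

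Markers of other cells were read beside these SK-N-SH results. Of 8 immune markers, 1 or 2 exceeded a mean of 1 CPM in each SK-N-SH group, and CD68, a macrophage marker that other cells also express, made up most of the sum, at means of 278, 471 and 84.5 CPM with vector, FL and dEx1. The sum was 224 to 321 CPM with vector, 421 to 539 CPM with FL and 80.2 to 94.9 CPM with dEx1. CD3E and NKG7, which define lymphoid cells, were at 0 in all 9 SK-N-SH libraries. All 5 stromal markers exceeded 1 CPM in every group, and their sum was 2588 to 8409 CPM with vector, 2595 to 4453 CPM with FL and 6519 to 10115 CPM with dEx1. CD68 was thus lowest with dEx1, as the inducible members were. CD14 was lowest with FL instead, at means of 1.69, 0.767 and 1.58 CPM with vector, FL and dEx1. PTPRC was at 0.600, 0.836 and 0.359 CPM in the same order. The stromal sum was higher with dEx1 than with FL and overlapped with vector. The part of these markers in the result was not tested.

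In BON-1 no member passed the threshold in any of the 3 comparisons by edgeR, nor by DESeq2. Over all genes 0.00671% were called for FL against vector, 0.0134% for dEx1 against vector and 0% for dEx1 against FL, so few genes of any kind were called in this line. The members at an unadjusted p under 0.05 numbered 4 for FL against vector, all higher, where 3.86% of all genes stood and 1.6% were higher. They numbered 0 for dEx1 against vector and for dEx1 against FL, where 2.88% and 1.05% of all genes stood. The lowest p for FL against vector belonged to PSMA1, with a fold of 0.35 (SE 0.14, adjusted p = 0.928). With dEx1 against vector it belonged to PSMB9, with a fold of -0.67 (SE 0.32, adjusted p = 0.916), and the next to PSMB7, with a fold of 0.46 (adjusted p = 0.916). Without vector replicate 1, which stood apart, the PSMB9 fold was -0.20. With dEx1 against FL the fold was -0.26 for PSME2, -0.24 for PSME1 and -0.48 for PSMB9. FL against vector gave -0.19 for PSMB9, -0.03 for PSME1 and 0.27 for PSME2. Without vector replicate 1 the first 2 changed sign, to 0.28 and 0.17, and PSME2 was at 0.16. For dEx1 against vector PSME1 was at -0.27 and PSME2 at 0.01, and without that library at -0.07 and -0.10.

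The median fold over all 42 members was 0.25 for FL against vector, 0.21 for dEx1 against vector and -0.04 for dEx1 against FL in BON-1, where the medians of all genes were -0.02, -0.02 and 0.00. In vector replicate 1 the constitutive members summed to 4449 CPM, against 5886 and 5846 CPM in the other vector libraries and 6145 to 6560 CPM in the 6 others. The same library held the highest PSMB9 and PSME1 values of the line, and its part in the medians was not tested. None of the class I, interferon or partner genes was called in BON-1, where at most 0.0134% of all genes were in any comparison. With dEx1 against vector, 4 of 14 class I genes were at an unadjusted p under 0.05, all lower. The class I median was -0.41, with 10 negative and 4 positive folds. Of 16 interferon genes 2 were at that level, both lower, and of 22 partners 0. Over all genes 2.88% stood there and 1.58% were lower.

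QGP-1 gave 0 calls among the members in all 3 comparisons by edgeR and by DESeq2, and 0 at an unadjusted p under 0.05, where 5.08%, 3.63% and 1.28% of all genes stood in the order FL against vector, dEx1 against vector and dEx1 against FL. Over all genes 0.0275% were called for FL against vector, 0.0207% for dEx1 against vector and 0.0138% for dEx1 against FL. The lowest p with FL against vector was that of PSMD12, a lid subunit, with a fold of 0.25, and its fold with dEx1 against vector was 0.23. With dEx1 against FL the lowest belonged to PSMD10, the chaperone also known as gankyrin, with a fold of -0.21. PSME1 had folds of -0.01, -0.02 and -0.01 and PSME2 folds of -0.04, -0.13 and -0.08 in the order FL against vector, dEx1 against vector and dEx1 against FL. Medians over the members were 0.01, 0.00 and -0.01. The constitutive sum followed the 2 clusters of libraries: it was 5465 to 6311 CPM in replicate 1 of every group and replicate 2 of FL and dEx1, and 4566 to 4650 CPM in the others.

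The 3 inducible members together made up 11.9, 11.9 and 9.79% of the member CPM in SK-N-SH with vector, 10.8, 11.1 and 12.5% with FL, and 6.79, 7.14 and 4.69% with dEx1. Vector replicate 3, the library nearest to the dEx1 libraries by principal components, had the lowest share of the vector and FL libraries. The constitutive members summed to between 4924 and 5911 CPM in that line, and the dEx1 libraries (4924 to 5299 CPM) overlapped the vector libraries (5070.1 to 5494 CPM). The FL libraries, at 5911, 5610.0 and 5907 CPM, were above all dEx1 and all vector libraries of the line. The inducible share was 3.61 to 6.25% in BON-1 and 2.72 to 3.47% in QGP-1, and within both lines the construct groups overlapped with vector.

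**Figure D4:**
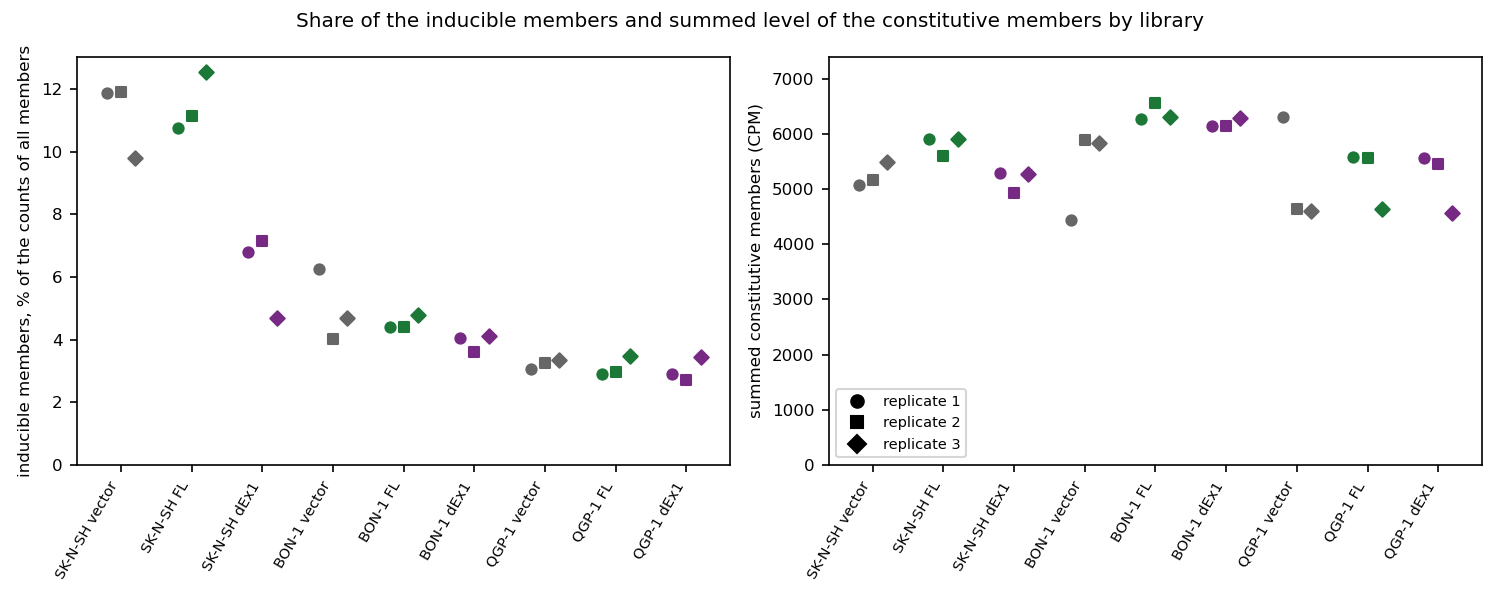
Left, CPM of the 3 inducible members as a percent of the CPM of all members; right, summed CPM of the constitutive members; each point is 1 of the 27 libraries and its shape gives the replicate. SK-N-SH dEx1 libraries have 4.69 to 7.14% against 9.79 to 12.5% in the other SK-N-SH libraries, while their constitutive sums (4924 to 5299 CPM) overlap those with vector and lie below those with FL (5610.0 to 5911 CPM); BON-1 vector replicate 1 has the lowest constitutive sum (4449 CPM).

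Between the lines with vector alone, differences were far more numerous, for members as for all genes. SK-N-SH against BON-1 gave 12 members higher and 11 lower in a fit over 27 libraries, where 29.7% of all genes were called higher and 30.9% lower. PSMB9 was higher in SK-N-SH by 4.27 (SE 0.58), PSME1 by 0.98 (SE 0.15, adjusted p = 5.85e-06, edgeR) and PSME2 by 0.78 (adjusted p = 9.16e-05). The constitutive members with the largest positive folds were PSMG4 at 1.88, PSMC5 at 1.20 and PSMB7 at 0.97. Lower in SK-N-SH were PSMB5, by a fold of -1.66 (adjusted p = 4.53e-08), PSMD1 at -1.04, PSMC4 at -0.89, PSMD8 at -0.88 and PSMA7 at -0.61. PSMD1 is a scaffold of the regulatory particle base, PSMC4 is an ATPase and PSMD8 is a lid subunit.

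SK-N-SH against QGP-1 gave 10 members higher and 7 lower, where 30.6% of all genes were higher and 30% lower. PSMB9 averaged 169 CPM in SK-N-SH and 0.166 CPM in QGP-1 (adjusted p = 4.03e-10), and no fold is given because 1 QGP-1 vector library was at 0. PSME1 was higher by 1.57, PSME2 by 1.47, PSMG4 by 2.02, PSMA6 by 0.94 and PSMB7 by 0.88. Lower in SK-N-SH were PSMD10 at -1.10, PSMD3, a lid subunit, at -0.91, PSMB6 at -0.83, and the beta subunits PSMB2 at -0.77 and PSMB3 at -0.65. BON-1 against QGP-1 gave 12 members higher and 12 lower, where 27.7% of all genes were higher and 23.7% lower. BON-1 was higher for PSMB9 (8.78 against 0.166 CPM, adjusted p = 4.08e-07), PSMB5 at 1.59, PSMC4 at 1.33, PSMD8 at 1.04, PSMA6 at 0.73, PSME2 at 0.70 and PSME1 at 0.60. It was lower for PSMD10 at -1.33, PSMB2 at -1.05, PSMB3 at -0.74, PSMD12 at -0.71 and PSMB6 at -0.64. Without QGP-1 vector replicate 1 the calls of PSMB3 against SK-N-SH, and of PSMB3 and PSMB6 against BON-1, were lost. The 3 inducible members kept 1 order in these levels, SK-N-SH above BON-1 above QGP-1, and each step passed the test. The constitutive members did not lean to 1 side: 20, 14 and 21 of 39 were called in the 3 comparisons, with medians of -0.03, 0.05 and 0.01.

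Over the 9 group means the highest level was 3.37 times the lowest for PSME1 and 3.60 times for PSME2, and PSMB9 spanned 194 to 0.166 CPM. The 39 constitutive members ranged from 1.18 times (PSMD7, a lid subunit) to 4.66 times (PSMG4), with a median of 1.75 and PSMB5 at 3.55. Within SK-N-SH alone the range over the 3 groups was 0.72 to 1.93 on the log2 scale for the inducible members and 0.05 to 0.93 for the constitutive ones, PSMA6 having the widest of the latter. PSMG4 was the second most variable member: it was at 23.1, 22.7 and 27.1 CPM with vector in SK-N-SH, at 2.88, 9.86 and 7.08 CPM in BON-1, and between 3.22 and 8.98 CPM in QGP-1.

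**Figure D5:**
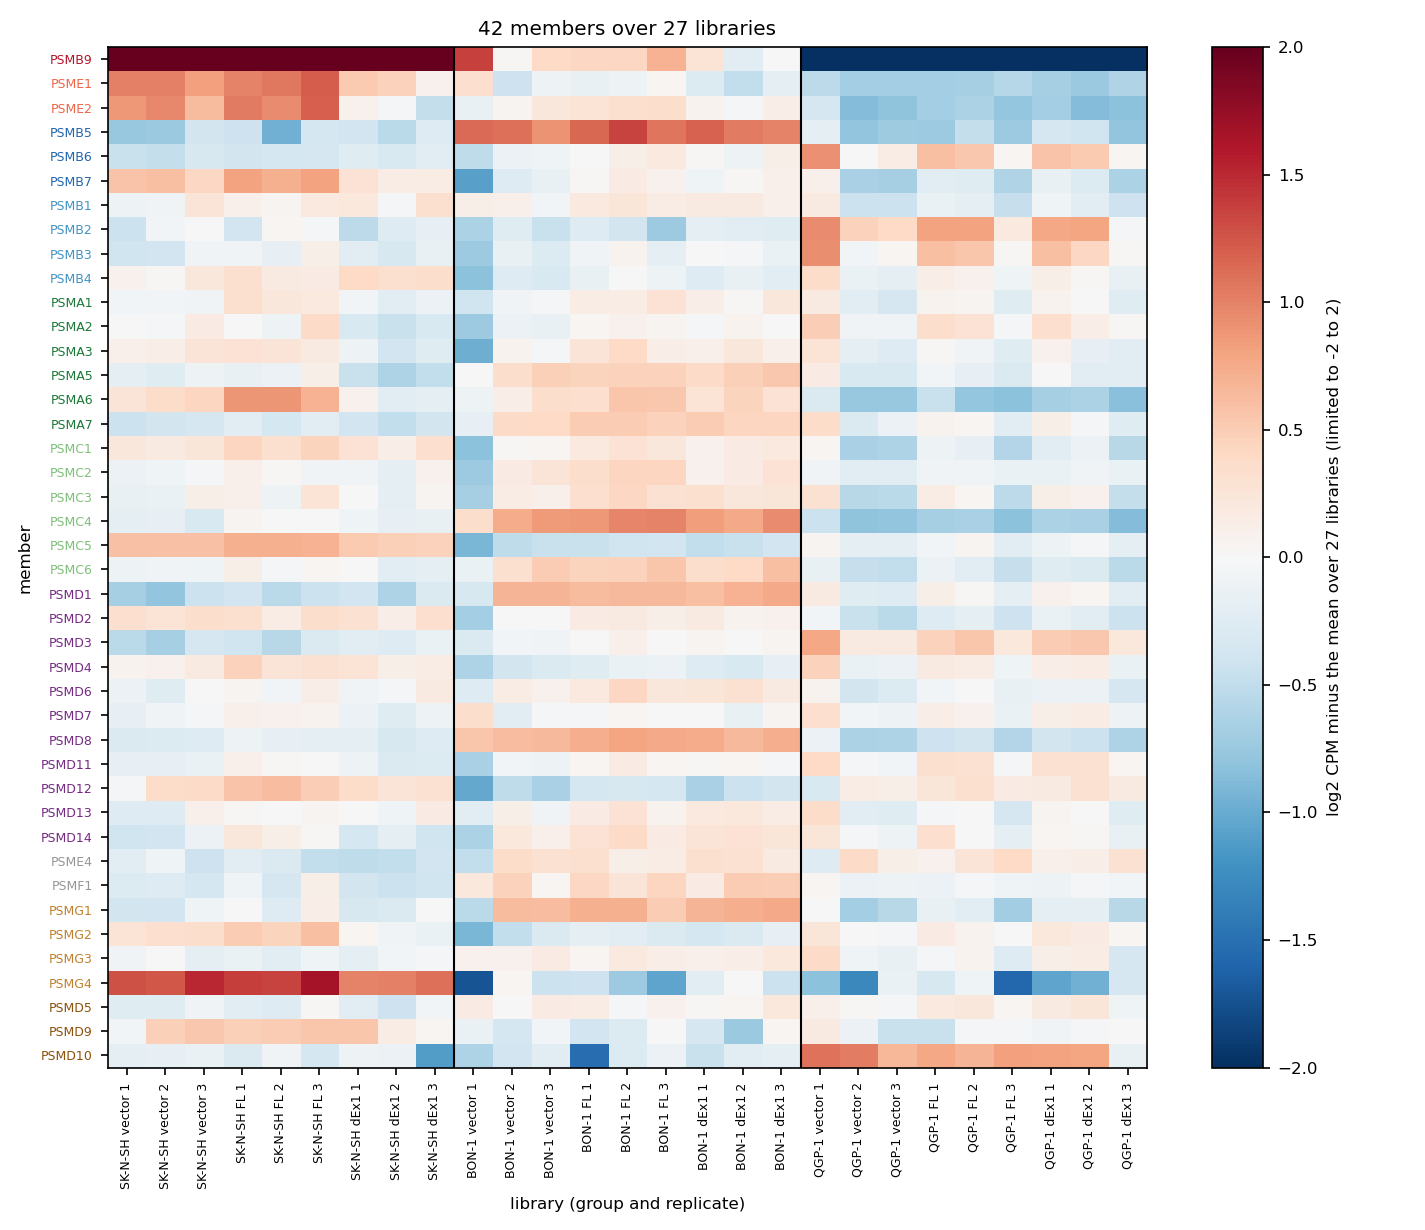
Log2 CPM of the 42 tested members in the 27 libraries, each row minus its mean over all libraries, with the colour scale ending at 2 in either direction. The inducible rows are high in SK-N-SH, lower with dEx1 there, and lowest in QGP-1; PSMB9 passes the end of the scale in SK-N-SH and QGP-1.

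Whether the construct effects differed between lines was tested as a difference of folds in the fit over 27 libraries. The fold of dEx1 against vector was lower in SK-N-SH than in BON-1 for PSME2, by -0.95 (SE 0.21, adjusted p = 0.0459, edgeR), the only member called, where 0.332% of all genes were. This call was lost under 9 of 18 alternatives, with adjusted p up to 0.153: with no filter on low counts, and without SK-N-SH vector replicate 1 or 2, SK-N-SH dEx1 replicate 3, BON-1 vector replicate 1 or 2, or any BON-1 dEx1 library. For PSMB9 the difference was -1.06 (SE 0.73, adjusted p = 0.672) and for PSME1 -0.29 (SE 0.20, adjusted p = 0.681), with intervals of -2.48 to 0.36 and -0.69 to 0.11 that hold both 0 and large differences. Against QGP-1 no member was called, where 0.521% of all genes were: the difference was -2.08 for PSMB9 (SE 0.89, adjusted p = 0.401), -0.54 for PSME1 (SE 0.20, adjusted p = 0.320) and -0.81 for PSME2 (SE 0.21, adjusted p = 0.0887). The PSMB9 value rests on QGP-1 levels near 0 (0.163 ± 0.176 CPM per kilobase with vector), so its size is not reliable. At an unadjusted p under 0.05 stood 7 members against BON-1 and 4 against QGP-1, all lower in SK-N-SH, where 10.9% and 10.3% of all genes did and 5.73% and 6.15% were lower. The total of 4 against QGP-1 is near the background, and was made up of all 3 inducible members and 1 of 39 constitutive members. Against BON-1 the 7 were 1 of 3 inducible and 6 of 39 constitutive members. Between BON-1 and QGP-1 the dEx1 fold differed for no member by edgeR, with 0 at an unadjusted p under 0.05 (3.91% of all genes), and for 0% of all genes. The FL fold differed for no member in any pair of lines by edgeR or DESeq2, with 0, 1 and 2 members at an unadjusted p under 0.05 (9.38%, 8.64% and 4.63% of all genes), and for 0.284%, 0.16% and 0.0118% of all genes in the order SK-N-SH against BON-1, SK-N-SH against QGP-1 and BON-1 against QGP-1.

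The 2 members outside the tests were near the limit of counting. PSMA8, an alpha subunit of the testis, was listed at 0 in all 27 libraries. PSMB11, the thymus catalytic subunit, was at 0.176, 0.0236 and 0.0903 CPM in the SK-N-SH vector libraries, at 0.0943 CPM in 1 BON-1 vector library, at 0.0377 CPM in 1 BON-1 FL library and at 0 in the rest.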

How the data were processed

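RNA was sequenced from 27 libraries made with an mRNA kit, per the labels' protocols. The authors deposited 1 table of estimated counts per gene, in whole numbers. Per the submitters' processing notes the tools were Trimmomatic, HISAT2 and StringTie on hg19. Their versions, the annotation, the strand setting and the step from StringTie to counts are not given in the sources used here. The low values heap at multiples of 5, so what 1 fragment is worth in these units is unknown. The counts were used as deposited. Of the 23234 lines, 4 symbols stood on a second, identical line and were used once.

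Each line was fitted on its own 9 libraries with edgeR 4.0.16 (R 4.3.3): filterByExpr, TMM scaling, and the quasi-likelihood F test with Benjamini-Hochberg adjustment over all genes at 0.05. Comparisons between lines and of effects used 1 fit of all 27. CPM are TMM-scaled over 27 libraries, and log2 levels use a prior count of 2. SE is the fold divided by the root of F. Lengths are those of canonical transcripts in GENCODE for hg19. The test was tried on simulated data first. A p-value sets the difference tested against the spread between libraries of the same group. These libraries are called biological replicates and may share a passage or day.

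Members and lists were chosen with earlier results of these data known. The genes named are the inducible and constitutive catalytic members, members called (up to 10 in a comparison within a line, 5 in each direction between lines), and those of lowest p where none was called. PSMD14, PSMA1 and PSMA7 were named after their values were seen, as were the list genes. Folds of PSMB5, PSMB6 and PSMB7 in BON-1 and QGP-1, of PSMB9 in QGP-1, and of TAP1, IRF1 and NLRC5 for FL against vector are not printed, only levels: they missed the threshold and many changed sign between settings, which was seen before the choice.

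Alternatives were other filters and size factors, DESeq2 1.42.0, counts divided by 5, other sets of libraries in the fit, a replicate block, a term for libraries that stand apart, and each library left out. Same-numbered dEx1 and FL libraries deviated together in BON-1 (r of 0.181 to 0.413) and QGP-1 (r of 0.159 to 0.466), so their numbers were read as pairing them. In the other comparisons within a line at least 1 pair was at or under 0.1.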

Additional observations from a re-analysis of the deposited data

Results flagged for a closer look

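The fold of PSME2 with dEx1 against vector differed between lines: it was lower in SK-N-SH than in BON-1 with a log2 difference of -0.954, an SE of 0.21 and an adjusted p of 0.0459 in edgeR's test of the difference itself. That call ended under 9 of 18 alternatives (adjusted p up to 0.153, edgeR). Against QGP-1 the difference was not called (adjusted p = 0.0887, edgeR). All 3 SK-N-SH dEx1 libraries (151, 141 and 102 CPM) were below the vector libraries (260, 278 and 223 CPM), whereas in BON-1 the dEx1 libraries (150, 138 and 156 CPM) lay within the vector range (128 to 167 CPM). The BON-1 vector library at 128 CPM is replicate 1, which stood apart by principal components.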

How the results depend on the processing

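Of the counts of called members, 268 were equal to the main count or within 1.5 times of it under an alternative, and 32 were not. Many of the 268 were a 0 that stayed 0 in BON-1, QGP-1 and the contrasts of effects. Few genes of any kind were called there, so that total says little about how firm the calls are. For SK-N-SH dEx1 against vector, 6 of 18 alternatives were within that limit and 12 were not. Of the folds of single genes 1357 kept direction and side of the threshold, 66 lost the call, 12 gained one and 22 changed sign, and those 22 had missed the threshold. For SK-N-SH dEx1 against vector (3 called) the count was 6 with a filter at a mean of 2 CPM, 6 with DESeq2 size factors, 6 with counts divided by 5, 9 with DESeq2, 11 with a term for replicate 3, 1 with only the 6 libraries compared, and 0 to 8 with 1 library left out. For SK-N-SH FL against vector (0 called) it was 4 with DESeq2 and 3 with the term for replicate 3, and for dEx1 against FL (12 called) it was 6 with all 27 libraries in 1 fit. For the dEx1 effect in SK-N-SH against BON-1 (1 called) it was 0 with no filter, 2 with DESeq2 and 0 to 2 with 1 library left out, and against QGP-1 (0 called) 1 with DESeq2 and 0 to 1 with 1 library left out. The cause was not tested.

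The replicate block was also fitted where the numbers were not read as pairing libraries, and the labels do not say what a number shares. It gave 1 call for SK-N-SH FL against vector and 10 for dEx1 against vector, where the main fit gave 0 and 3. Within line, it gave 6 and 1 for the dEx1 effect against BON-1 and QGP-1. Of 3 numbers, 1, 1 and 2 correlated best with their own in the 3 SK-N-SH comparisons. In the paired dEx1 and FL libraries of BON-1 and QGP-1 the block changed no call.

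With 1 library left out, signs changed for PSMB5 in SK-N-SH FL against vector (-0.049 to 0.23) and dEx1 against FL (-0.0055 to 0.27), in BON-1 FL against vector for PSMB9 (-0.41 to 0.28) and PSME1 (-0.17 to 0.17), and in BON-1 dEx1 against vector for PSME2 (-0.10 to 0.12). In QGP-1 they changed for FL against vector in PSME1 (-0.037 to 0.028) and PSME2 (-0.14 to 0.13), for dEx1 against vector in PSME1 (-0.051 to 0.017) and PSME2 (-0.22 to 0.049), and for dEx1 against FL in PSME1 (-0.035 to 0.017) and PSMD10 (-0.36 to 0.052). With vector alone they changed for PSMB5 in SK-N-SH against QGP-1 (-0.25 to 0.095) and PSMB7 in BON-1 against QGP-1 (-0.26 to 0.17).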
